A study of Cucumis sativus with 33 samples.

Results

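In opening cucumber flowers, 22 of 23248 genes held at least 400 RPM (the authors' unit, reads relative to the library total) in every sampled group and differed by less than 2-fold between their highest and lowest group means. They are described here across 33 RNA-seq libraries of the corolla, the whorl of petals, of female Cucumis sativus flowers. The genes were chosen by their 11 group means of RPM, so their high level and their flat course are descriptions and not findings, and they carry no test. All plants were of the inbred line 6457, and flowers were bagged against pollination. Super ovaries grew on well-watered and well-fed plants that set a single fruit, from the first female flower next to the shoot tip. Normal ovaries grew under water and fertilizer shortage, with 1 or 2 other fruits on the plant, so feeding and fruit load cannot be told apart in any comparison of the ovary types. Super corollas were taken as green buds on day 1 after the ovary was labeled (S1), as green yellow buds on days 3 to 5 (S3, S4, S5), as yellow buds on days 7 and 8 (S7, S8) and open on day 9 (S9). Normal corollas were taken as green buds on day 1 (N1), green yellow buds on day 3 (N3), yellow buds on day 4 (N4) and open on day 5 (N5). Each group had 3 libraries, each from 5 ground and mixed corollas.

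Genes read heavily at every stage of a tissue are commonly those of basic cell upkeep, such as protein synthesis, energy metabolism, the cytoskeleton and protein turnover. Their steadiness makes such genes the usual yardsticks in expression studies of flower development, during which a petal goes from a green, dividing bud to an expanded, pigmented and short-lived organ. Which of these roles the 22 genes have cannot be said from the sources used here, since the deposited table gives identifiers without names and none of its identifiers matched the RefSeq table. For the same reason the corolla label was not checked against petal markers, and 4 of the 22 genes are given by identifier. RPM sets a gene's reads against all reads of its library and takes no account of transcript length, so levels compare libraries for 1 gene and do not rank genes by transcript number.

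The libraries held 16858681 to 24643183 reads, as recovered from the steps between deposited values. The lowest value of any of the 22 genes in a library was 371 RPM, and the fewest reads were 6832, a counting error of at most 1.21%. Replicates correlated across the 18905 genes tested at 0.989 or above, except that S7 replicate 3 stood apart at 0.965 and 0.977. In the 22 genes this library had the largest median deviation from its group mean (0.105 on the log2 scale, against 0.094 for the next, S7 replicate 1).

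Both limits of the choice ran through populated ranges. In all, 53 genes were at 400 RPM or more in every group, and the other 31 of them spanned a fold of up to 16.3 (median 3.04). The last 2 genes inside the fold limit had ratios of highest to lowest group mean of 1.95 and 1.96, and the first 2 outside had 2.03 and 2.07. On the side of abundance, the lowest group means just inside were 414 and 422 RPM. Of the genes within 2-fold but below the limit, the nearest stood at 386 and 361 RPM. Within the 22, 8 genes had a ratio under 1.5, 8 lay between 1.5 and 1.8 and 6 above, with a median of 1.61. The limits held in the single libraries as well for 13 of the 22 genes.

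**Figure D1:**
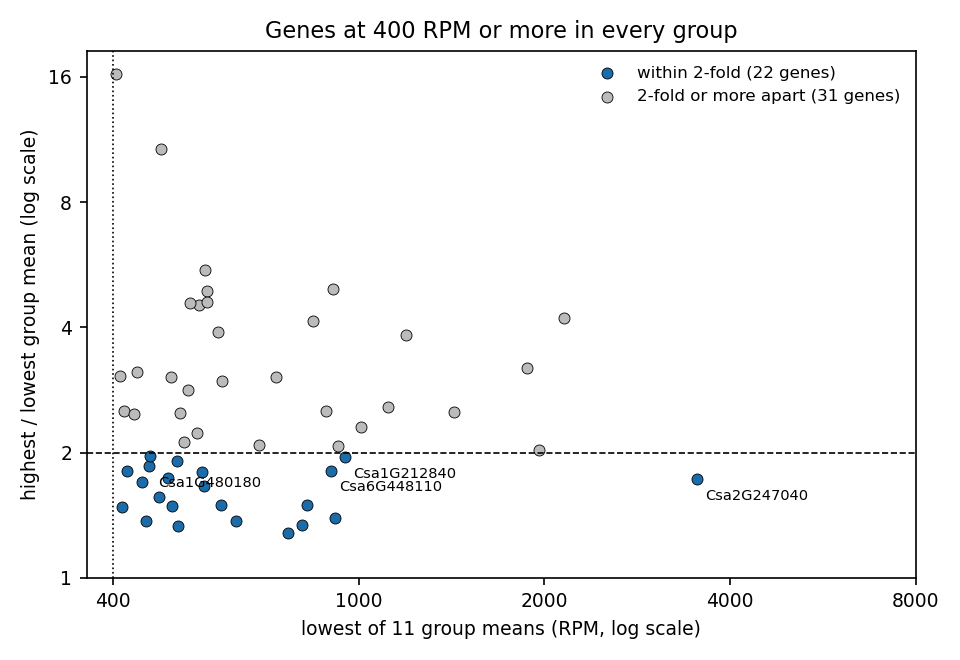
Lowest of the 11 group means (x axis, RPM, log scale) against the ratio of highest to lowest group mean (y axis, log scale) for the 53 genes at 400 RPM or more in every group. The 22 genes described here (blue) lie below the 2-fold line, between 1.28 and 1.96, and the other 31 (grey) reach 16.3.

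Together the 22 genes took 1.99% to 2.26% of each library (mean 2.10%, SD 0.0638 over 33 libraries). Their summed level in the super course was 20475 ± 479 RPM in S1, 21603 ± 244 in S3, 21131 ± 6.83 in S4, 22312 ± 219 in S5, 21062 ± 442 in S7, 20535 ± 303 in S8 and 20263 ± 215 in S9 (SD, n = 3 each). In the normal course it was 20760 ± 336 RPM in N1, 20993 ± 415 in N3, 21261 ± 89.3 in N4 and 20503 ± 522 in N5. A single gene, Csa2G247040, took 16.9% to 28.3% of this sum, and the rest ran from 15059 to 17580 RPM. Without it the sum as deposited was lowest in the green buds, with 15173 ± 120 RPM for S1 and 15335 ± 203 for N1. It was highest in N4 at 17466 ± 115 RPM. The sums were not computed after the rescaling described below.

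Csa2G247040 was the gene with the most RPM of the 22, at 4704 RPM over the groups, and the only one of the 4 named that was high in buds and lower in open flowers of both courses. In the super course its libraries read 4780, 5179 and 5948 RPM in S1, 5579, 5392 and 5718 in S3, 5313, 5959 and 5669 in S4 and 6050, 6208 and 6119 in S5. They then read 4350, 4801 and 4657 RPM in S7, 3647, 3622 and 3732 in S8 and 4287, 3980 and 4097 in S9. All 12 super libraries up to day 5 lay above all 9 later ones, except that S1 replicate 1 was below S7 replicate 2. In the normal course the level had dropped by day 3, with 5194, 5354 and 5726 RPM in N1, 3892, 3978 and 3993 in N3, 3856, 3631 and 3896 in N4 and 3636, 3612 and 3366 in N5. As deposited, the ovary types therefore did not overlap on the same day from day 3 on. S3 stood at 1.41 times the mean of N3, S4 at 1.49 times N4 and S5 at 1.73 times N5. On day 4 green yellow super buds stood against yellow normal buds, and on day 5 against open normal flowers. Ovary type and bud stage cannot be told apart on those days. Between yellow buds as deposited, S7 stood at 1.21 times N4 with no overlap, and S8 at 0.97 times N4 with overlap. The open flowers lay closer, S9 standing at 1.16 times N5. Between the first and last days the log2 change was -0.36 (SE 0.09) in S9 against S1 and -0.62 (SE 0.09) in N5 against N1. Of the fitted comparisons named here, the rescaling described below made all log2 changes smaller except that of S9 against N5. They became -0.03 in S9 against S1 and 0.08 in S4 against N4, neither of them called by limma. On that scale -0.35 in N5 against N1, 0.36 in S3 against N3 and 0.49 in S5 against N5 were called. In S9 against N5 the value grew from 0.22, not called as deposited, to 0.30, which was called. The yellow buds were not fitted against each other. Their rescaled group means were 4579 in S7, 4353 in S8 and 4684 in N4. S7 was then no longer above N4, and the libraries of these groups overlapped.

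Csa1G212840 had the most RPM of the genes that were higher in N5 than in N1, at 1415 RPM over the groups. Its super libraries read 935, 991 and 929 RPM in S1, 1272, 1280 and 1307 in S3, 1583, 1309 and 1298 in S4 and 1176, 1128 and 1164 in S5. Later they read 1431, 1503 and 1196 RPM in S7, 1101, 1427 and 1223 in S8 and 1683, 1818 and 1851 in S9. As deposited, only on day 9 did the super course reach the level that the normal course had from day 3. After the rescaling described below this did not hold in single libraries. S8 replicate 2 then stood at 1706, against 1685 in N3 replicate 2. The normal libraries read 1047, 929 and 1008 RPM in N1, 1758, 1728 and 2070 in N3, 2043, 1736 and 1644 in N4 and 1861, 1658 and 1595 in N5. S9 stood at 1.88 times S1 and N5 at 1.71 times N1, with no overlap of libraries in either. The super mean was 0.69 of the normal one on day 3, 0.77 on day 4 and 0.68 on day 5, again with no overlap, while S1 and N1 overlapped, as did S9 and N5.

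Csa1G480180, with the largest ratio of N5 to N1, climbed by small steps. Super libraries read 479, 433 and 461 RPM in S1, 508, 486 and 490 in S3, 510, 471 and 525 in S4 and 625, 561 and 543 in S5. They went on to 612, 605 and 643 RPM in S7, 733, 691 and 723 in S8 and 808, 770 and 741 in S9. As deposited, the group means never fell along either course. Normal libraries read 499, 492 and 466 RPM in N1, 620, 595 and 582 in N3, 739, 752 and 754 in N4 and 848, 817 and 889 in N5. The log2 change was 0.75 (SE 0.06) in S9 against S1 and 0.81 (SE 0.06) in N5 against N1. On days 3, 4 and 5 the super libraries were all below the normal ones, at 0.83, 0.67 and 0.68 of the normal mean. After the rescaling described below the group means went from 445 in S3 to 442 in S4 and from 924 in N4 to 918 in N5. The ratio of highest to lowest was then 2.23.

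Csa6G448110 went in different directions in the 2 courses, and it was singled out for that after its values were seen. Super libraries read 1322, 1290 and 1247 RPM in S1, 1136, 1047 and 1144 in S3, 880, 809 and 1021 in S4, 1197, 1120 and 1142 in S5, 689, 813 and 1330 in S7, 1123, 987 and 1253 in S8 and 1054, 844 and 969 in S9. Normal libraries read 1218, 1149 and 1178 RPM in N1, 1485, 1384 and 1359 in N3, 1453, 1672 and 1779 in N4 and 1529, 1613 and 1584 in N5. All 3 S9 libraries were thus below all 3 of S1, and all 3 N5 libraries above all 3 of N1. As deposited, from day 3 on every normal library was above every super library, the S7 replicate 3 value of 1330 RPM being the closest. After rescaling this did not hold, as S8 replicate 3 stood at 1496 against 1475, 1350 and 1357 in N3. The group mean in S4 was 0.55 of that in N4 and in S9 it was 0.61 of that in N5. After rescaling the log2 change in S9 against S1 was -0.10, against -0.43 as deposited, so the drop along the super course depended on the scale. Its place among the 22 rested on S7 replicate 3, without which the S7 mean was 751 RPM and the ratio of highest to lowest group mean 2.18.

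**Figure D2:**
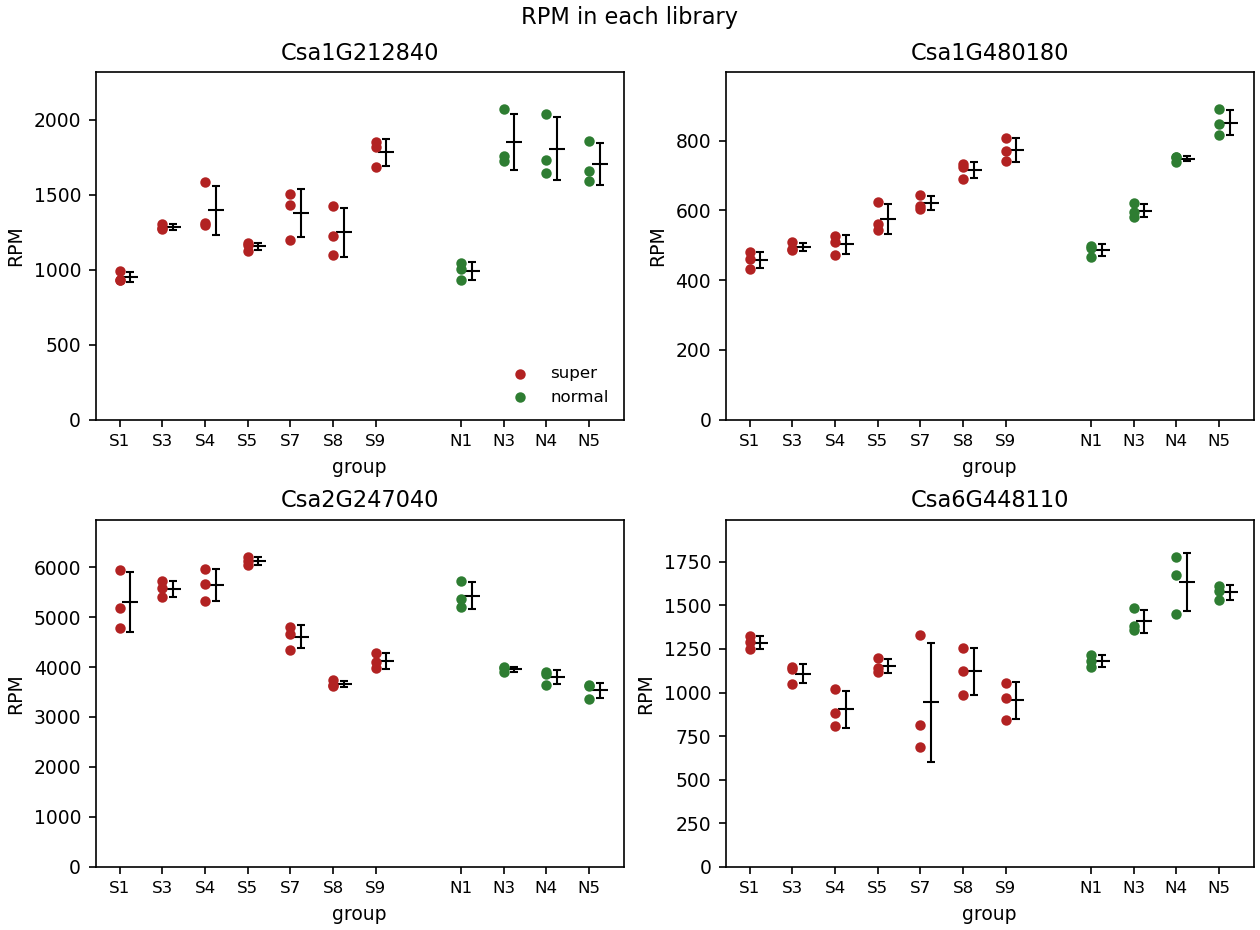
RPM of each library (points) for the 4 named genes in the super course (red) and the normal course (green), with the mean and SD of the 3 libraries of a group (black). Csa2G247040 is high up to S5 and lower from S7, whereas in the normal course it is lower from N3; in Csa6G448110 the S7 libraries spread from 689 to 1330 RPM.

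The remaining genes are summarised by what they did between the green bud and the open flower. In S9 against S1, 8 of the 22 genes were called higher and 9 lower by limma at an adjusted p under 0.05 with no minimum fold. Over all genes tested these shares were 32.3% and 53.4%. In N5 against N1, 10 were called higher and 6 lower, with 31.2% and 52% over all genes. Since the choice of genes used these group means and capped their folds, nothing is read from either count or from the medians that follow. The median of the 22 was 0.02 in S9 against S1 and 0.12 in N5 against N1 on the log2 scale, beside -0.35 and -0.30 over all genes tested. In bulk tissue a change in the share of a cell type and a change in RNA per cell cannot be told apart in any of these values.

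Of the 22 genes, 8 were called higher at flowering in both courses, Csa1G212840 and Csa1G480180 among them. The share of all genes called the same way in both courses was not computed. Nothing is therefore read from the size of this class or the next. The S9 to S1 ratios of these 8 genes ran from 1.22 to 1.88 and their N5 to N1 ratios from 1.11 to 1.75. S1 was the lowest super group for 7 of the 8, and their median level against their own mean over the groups went through 0.82 in S1, 0.92 in S3, 0.89 in S4, 0.96 in S5, 1.04 in S7, 1.17 in S8 and 1.20 in S9. In the normal course the median was 0.84 in N1, 0.97 in N3, 1.18 in N4 and 1.10 in N5. The yellow bud divided this group as deposited, since N4 was the lowest normal group for 3 of the 8. All 8 were also called higher in both courses after the rescaling described below, with log2 changes of 0.62 to 1.24 in S9 against S1 and 0.41 to 1.07 in N5 against N1. The rescaling divides S1 and N1 by mean factors of 1.103 and 1.113, and S9 and N5 by 0.876 and 0.928. It could therefore only enlarge these changes and is no check of the calls.

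Another 6 genes were called lower at flowering in both courses, with S9 to S1 ratios of 0.59 to 0.87 and N5 to N1 ratios of 0.65 to 0.89. Csa2G247040 was among them. The open flower was the lowest group of the super course for 4 of them and of the normal course for 5. Their median level against their own mean was 0.84 in S9, against 1.10 in S1, and 0.79 in N5, against 1.13 in N1. The same factors raised the changes of this class too, and it depended on the scale. After rescaling 2 of the 6 were called lower in both courses, and the log2 changes of the 6 ran from -0.44 to 0.13 in S9 against S1 and from -0.35 to 0.09 in N5 against N1. Of the last 8 genes, 4 were called in neither course, with S9 to S1 ratios of 1.01 to 1.05 and N5 to N1 ratios of 0.94 to 1.07. Of the other 4, 2 were called lower in S9 alone, 1 was called higher in N5 alone and 1, Csa6G448110, had opposite calls. The differences between the courses were not tested.

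**Figure D3:**
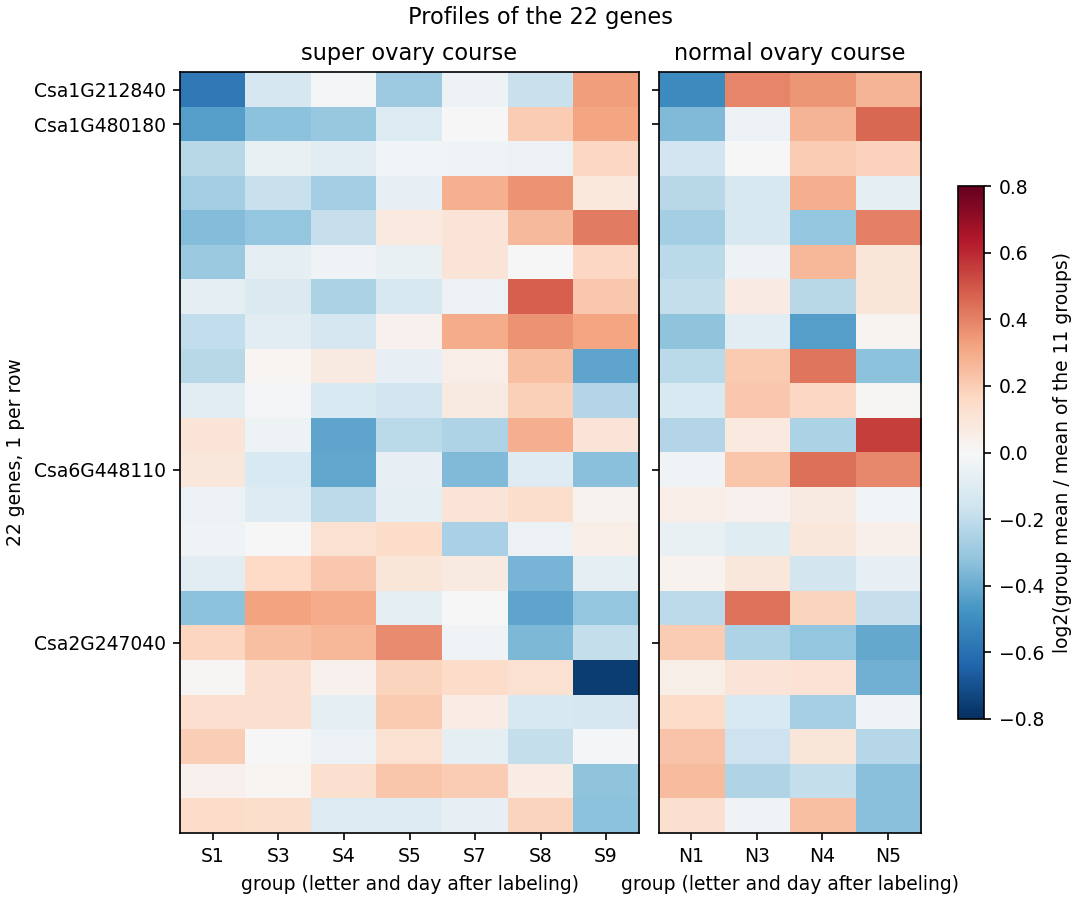
Log2 of each group mean over the gene's mean of the 11 groups (colour) for the 22 genes (rows) in the super course (left) and the normal course (right). Rows run from the 8 genes higher at flowering in both courses through the mixed and uncalled genes to the 6 genes lower in both.

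As deposited, no stage was the common high point of the 22 genes, whereas after the rescaling described below N4 was the highest group for 13 of them and S8 for 6. The highest group mean as deposited fell in N4 for 5 genes, in S5 and S8 for 4 each, in N3 for 3, in N1 and N5 for 2 each and in S4 and S9 for 1 each. Low points were fewer in kind, with S1 the lowest for 6 genes, S4 and N5 for 4 each, S9 for 3, N4 and S8 for 2 each and S7 for 1. The 4 genes at their highest in N4 within the normal course and in S7 or S8 within the super course shared a yellow bud maximum, and after rescaling there were 8 such genes. Within a course the ratio of highest to lowest mean ran from 1.27 to 1.91 (median 1.49) over the 7 super groups and from 1.07 to 1.86 (median 1.41) over the 4 normal groups. The smallest ratio over all 11 groups was 1.28, in a gene at 733 to 994 RPM (median 897) over the 33 libraries, with 769 ± 32.6 RPM in S4 and 981 ± 12.6 in S8.

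Ovary types were next compared on matched days and at flowering. Super buds were green yellow on days 4 and 5, when the normal corollas were yellow buds and open flowers. On those days ovary type and bud stage cannot be told apart, also for the named genes above. In the green bud, 1 of the 22 genes was called higher in S1 than in N1 and 0 lower, with 3.62% and 4.64% over all genes tested. Their log2 differences lay between -0.22 and 0.33. The 1 call did not hold up, as leaving out single libraries gave 0 to 2 by limma. With edgeR on the recovered reads 0 genes were called. S1 replicate 2 was not in that test, and leaving it out gave 0 by limma too. At an unadjusted p under 0.05, limma had 1 higher and 2 lower and edgeR 1 and 1. The share of all genes at that threshold was not computed, so nothing is read from these counts. In S3 against N3, 4 were called higher and 6 lower (43.7% and 20.2% over all genes), and without N3 replicate 3 the total was 6 in place of 10. Without N3 replicate 3 or S3 replicate 3 the lower calls were 3 in place of 6. In S4 against N4, 5 were called higher and 10 lower (60.1% and 19.8%), with log2 differences from -0.86, that of Csa6G448110, to 0.57, that of Csa2G247040. Without S4 replicate 2 the 5 higher calls were 3. In S5 against N5, 8 were called higher and 7 lower (53.1% and 26.2%). At flowering, 3 were called higher and 4 lower in S9 than in N5 (16.2% and 25.8%), with log2 differences from -0.73 to 0.30. Without N5 replicate 1, N5 replicate 3 or S9 replicate 2 the 3 higher calls were 1, and the 4 lower calls were 4 each time. The lowest of these was again Csa6G448110, the single gene more than 1.5-fold apart at that stage. These counts too concern group means that the choice of genes had used. S5 against N5, N5 against N1 and S9 against N5 share the N5 libraries, as the pairs with S1, S9 or N1 share theirs.

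What counts as steady depended on the scale. RPM is relative to the library total, and the median gene moved against that total, with a mean factor of 0.81 in N4 and 0.843 in S8 but 1.138 in S4 and 1.143 in S5. With each library divided by its median ratio over genes, 15 genes met the same limits, of which 12 were among the 22. The other 10 of the 22 then exceeded 2-fold, the widest at 2.59 (Csa1G212840). The 3 that entered had ratios of 2.07 to 2.50 as deposited. On this scale the lowest group was S4 for 8 of the 22 genes and S1 for 7. In S4 against N4, 0 genes were then called higher and 19 lower, in place of 5 and 10, and the median of the 22 was -0.64 beside 0.10 over all genes. At an unadjusted p under 0.05 limma likewise had 0 higher and 19 lower on this scale. By edgeR, which scales by a similar principle, 0 were called higher and 20 lower. Over all 19621 genes that edgeR tested, 7557 were called higher and 6760 lower. The rescaling divides S4 by 1.138 and N4 by 0.81, so it could only move these changes down. The likeness of the limma and edgeR counts is therefore no check of the calls. In S3 against N3 the calls became 1 higher and 11 lower and in S5 against N5 3 higher and 12 lower. Between the first and last days they became 14 higher and 2 lower in S9 against S1 and 15 higher and 5 lower in N5 against N1, with medians of 0.35 and 0.38. At flowering they were 4 higher and 3 lower in S9 than in N5. Over all genes the share of calls that were higher became 48.0% in place of 37.7% in S9 against S1, 55.1% in place of 75.2% in S4 against N4 and 52.0% in place of 38.5% in S9 against N5. It became 56.0% in place of 68.3% in S3 against N3 and 52.7% in place of 67.0% in S5 against N5. In N5 against N1 it became 47.2% in place of 37.5%. These are shares of the calls and not of all genes tested. Nothing is therefore read from the rescaled counts of the 22 genes. Csa2G247040 narrowed to a ratio of 1.41 on this scale, and the steadiest gene as deposited widened to 1.72.

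**Figure D4:**
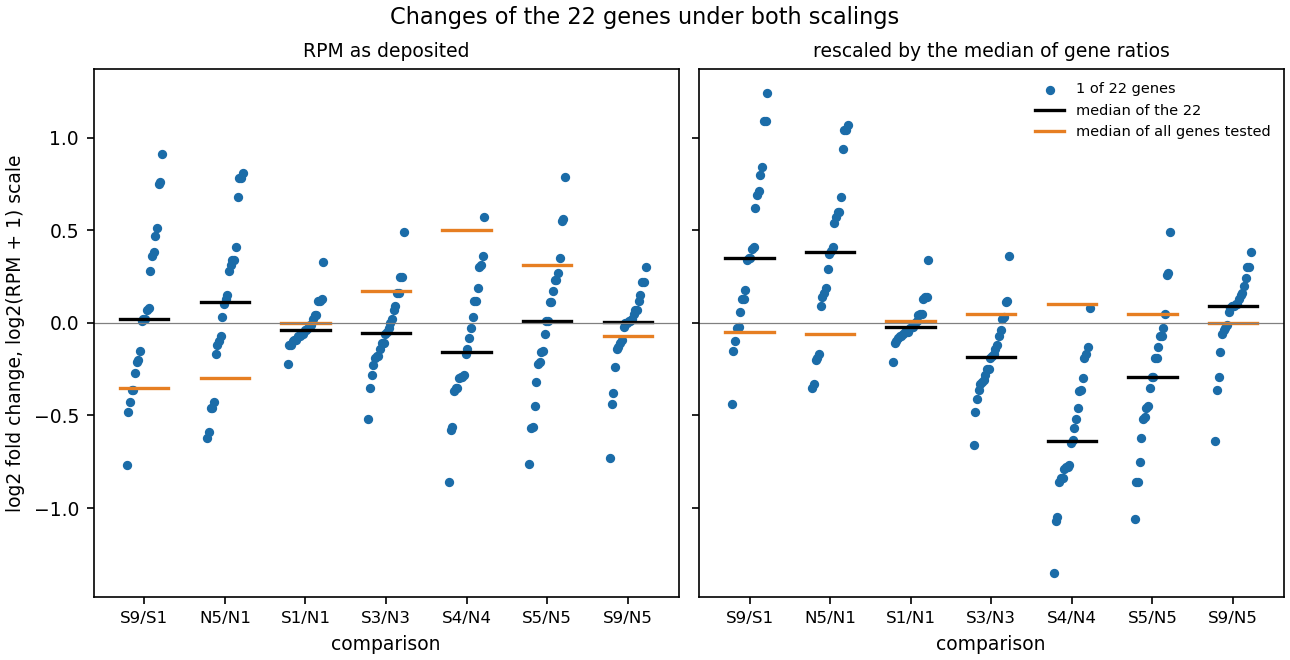
Log2 fold changes, on the log2(RPM + 1) scale, of the 22 genes (blue points) in 7 comparisons, as deposited (left) and after rescaling by the median of gene ratios (right), with the median of the 22 (black) and of all genes tested (orange). As deposited the 22 centre near 0 in every comparison, which their choice by RPM group means favours. After rescaling their median is -0.64 in S4 against N4.

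The spread between replicates was a measure that the choice did not set, although a noisy gene is less likely to keep a small fold between group means. The coefficient of variation within groups, pooled over the 11 groups, ran from 3.22% to 13.1% in the 22 genes, with a median of 5.69%. In the other 31 genes at 400 RPM or more it ran from 4.73% to 52.5%, with a median of 9.34%. The ranges overlapped widely, with 5 of the 31 below the median of the 22, and 8 of the 31 above the highest of the 22. By group the median of the 22 was below that of the 31 in every group except N5, where it was 6.57% against 4.84%. S7 had the widest spread in both sets, at 8.03% in the 22 and 16.1% in the 31. The 13.1% belonged to Csa6G448110, which came to 8.15% without S7 replicate 3, and the median of the 22 was then 5.49% and that of the 31 8.83%. Every pooled value was above the counting error of at most 1.21%.

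**Figure D5:**
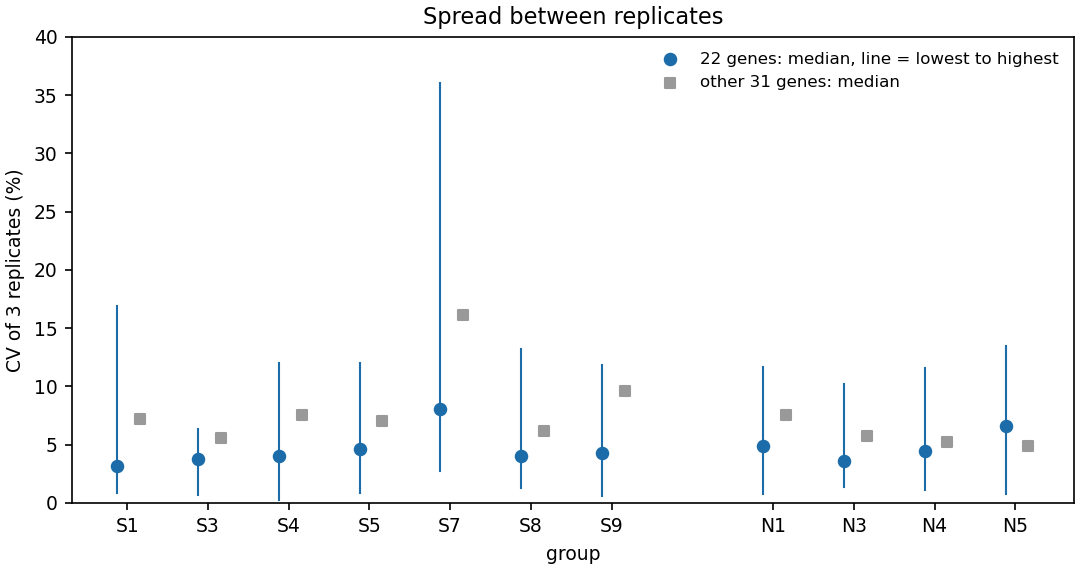
Coefficient of variation of the 3 replicates in each group for the 22 genes (blue, median with a line from lowest to highest) and for the other 31 genes at 400 RPM or more (grey squares, median). The medians of the 22 lie between 3.18% in S1 and 8.03% in S7.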

How the data were processed

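The authors deposited a single table of RPM values for 33 libraries, with 1 column per library. TopHat and HTSeq are named per the submitters' processing notes; no version, build or annotation is given in the sources used here. In each column low values fell on multiples of 1 step (100% of values under 100 RPM lay within 0.25 of a whole read), which gave the library totals. For 30 libraries a separate test on the lowest values passed too, and only these entered the edgeR test. It lacked replicate 2 of S1, of S4 and of N5. In the edgeR test 1 read was taken as added to every gene, since no value was 0. None of the 23248 identifiers matched the 23999 genes of the RefSeq table (assembly Cucumber_9930_V3), so functional lists and marker checks could not be formed.

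Group means of the 3 replicates chose the genes (lowest mean of at least 400 RPM, highest over lowest under 2). The genes, lists and limits were chosen with earlier results of these data known. Identifiers were printed by rule: of the genes with N5 above N1, the one with the most RPM and the one with the largest N5 to N1 ratio, and of those with N5 below N1, the one with the most RPM and the one with the smallest ratio, which were the same gene. Csa6G448110 was added after its values were seen. The 18905 genes whose highest group mean reached 1 RPM were fitted on log2(RPM + 1) with limma 3.58.1 (R 4.3.3), in 1 fit of 11 group means with a variance trend. P-values were adjusted by Benjamini-Hochberg over all genes in each of 7 comparisons. Both limma and edgeR 4.0.16 recovered known changes in simulated data, where few genes changed, up and down alike, in S9 alone. That simulation held no shift of the median gene, so it does not bear on the choice of scale. No 2 replicates were identical, and each pair differed by more than sampling noise (chi-square over its degrees of freedom, 5.2 to 74.61). Whether pools came from separate plants is not stated, so p-values reflect only how these pools varied. Alternatives were other pseudocounts, filters and limits, rescaling by the median of gene ratios over genes with a mean of at least 10 RPM, a replicate block, edgeR and leaving out libraries. DESeq2 was not run. Counting errors leave out PCR duplication, which makes reads of 1 molecule look like several.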

Additional observations from a re-analysis of the deposited data

Results flagged for a closer look

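As deposited, Csa6G448110 moved in opposite directions in the 2 courses, with every library of the last day on 1 side of every library of the first day in each. Its log2 ratio of group means was -0.43 in S9 against S1, and its fitted log2 change was 0.41 in N5 against N1. After rescaling by the median of gene ratios the change in S9 against S1 was -0.10 and was not called, and its libraries overlapped, S9 replicate 1 standing at 1166 against 1125 in S1 replicate 3. The difference between the courses was not tested. Groups of 3 libraries are too small for a check of single outlying libraries, so the S7 replicate 3 value of this gene is given only beside its results.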

How the results depend on the processing

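The number of genes was 38 with a limit of 300 RPM, 13 with a limit of 500 RPM and 13 with the limits applied to single libraries. It was 15 after rescaling, 18 with group medians, 16 and 26 with fold limits of 1.8 and 2.2, and 20 to 23 when a replicate number or a single library was left out. Leaving out a replicate number moved the share of all RPM by less than its SD over libraries (2.10% in each case) and put the median spread at 5.12% to 6.26%, and rescaling put it at 5.57%. Replicate numbers did not pair the libraries, as 5 of 21 same-numbered pairs had deviations correlated above 0.1 (range -0.09 to 0.29) and 6 of 21 libraries correlated best with their own number. With the replicate block the called genes numbered 17 in S9 against S1, 16 in N5 against N1, 2 in S1 against N1, 10 in S3 against N3, 15 in S4 against N4, 15 in S5 against N5 and 9 in S9 against N5, where 17, 16, 1, 10, 15, 15 and 7 were called without it. In the same order edgeR on recovered reads called 15, 18, 0, 15, 20, 14 and 7 of the 22, and 16081, 15435, 1016, 11577, 14317, 14221 and 6557 of 19621 genes tested. Leaving out single libraries, S7 replicate 3 included, gave 15 to 17, 14 to 16, 0 to 2, 6 to 11, 13 to 15, 14 to 16 and 5 to 8. Pseudocounts and filters on low values moved no count by more than 1. Csa2G247040 in S4 against N4 had a log2 change of 0.57 as deposited and -0.0027 by edgeR, which was not called. Of 392 values of the 4 named genes under alternatives, 371 kept their side of the threshold (2 of them, not called either way, with another sign), 12 lost their call, 8 gained 1 and the 1 above changed sign. For the changes listed the cause was not tested. The counting error of at most 1.21% was below the pooled spread of each of the 22 genes.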

Other observations

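As deposited, the 22 genes did not share a profile. Over their 231 pairs, the correlation of log2 group means across the 11 groups had a median of 0.03 and was above 0 in 118 pairs, above 0.8 in 6 and below -0.8 in 2. After rescaling by the median of gene ratios the median was 0.53, with 202 pairs above 0, 32 above 0.8 and 0 below -0.8, so the statement holds for RPM alone. Rescaling divides all genes of a library by the same factor, which the pairs then share. All pairs rest on the same 33 libraries and on values relative to the same library totals.

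Identifiers of the table begin with Csa, a digit or UN, and G. By that digit 4 of the 22 genes belonged to 1, 5 to 2, 3 to 3, 5 to 4, 0 to 5, 4 to 6 and 1 to 7, where 14.5%, 12.3%, 20.4%, 11.9%, 13.1%, 16.4% and 10.2% of all identifiers belonged. With 22 genes these counts are a description only.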
